A study of Mus musculus with 35 samples.

Results

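A set of 9 genes that mark microglia, the resident immune cells of the brain, are described here across genotype and treatment in mouse medial prefrontal cortex (mPFC). The genes were chosen by name, as markers of homeostatic microglia and the genes of complement C1q, and by no threshold on their values. All 9 had a row among the 14870 genes measured. They are C1qa, C1qb and C1qc, which encode the chains of complement C1q, and Cx3cr1, P2ry12, Tmem119, Csf1r, Selplg and Trem2, which are surface proteins of microglia in their resting, or homeostatic, state. Punches of the mPFC of Shank3-deficient mice (KO) and wild-type mice (WT) were sequenced as bulk RNA. Shank3 encodes a scaffold protein of excitatory synapses. The KO libraries comprised 3 from mice given antibiotics (KO_abx), 5 given acetate (KO_acetate), 4 given both (KO_abx_and_acetate) and 4 given water as control (KO_control). The WT libraries comprised 4 given antibiotics (WT_abx), 5 given acetate (WT_acetate), 4 given both (WT_abx_and_acetate) and 6 given water (WT_control). Of the 35 libraries, 15 were labelled female and 20 male. Females and males numbered 1 and 2 in KO_abx, 2 and 3 in KO_acetate, 3 and 1 in KO_abx_and_acetate and 2 and 2 in KO_control. In WT they numbered 2 and 2 in WT_abx, 1 and 4 in WT_acetate, 1 and 3 in WT_abx_and_acetate and 3 and 3 in WT_control. Sex was thus unbalanced between the genotypes under antibiotics with acetate. The sources used here do not give the age of the mice, the part of Shank3 that is deleted, the antibiotics or any dose. No label states that the libraries come from separate animals, and p-values then measure only the spread between these samples.

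Microglia depend for their survival on Csf1r, the receptor for the growth factors Csf1 and Il34, and they sense neurons and damaged tissue through receptors such as Cx3cr1, P2ry12 and Trem2. C1q starts the classical complement cascade and, in the developing and diseased mouse brain, marks synapses that microglia then remove. Microglia of mice raised without gut bacteria have been described as immature, and short-chain fatty acids made by gut bacteria, acetate among them, have been linked to their maturation.

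The chains of C1q are encoded side by side on the minus strand of chromosome 4 (GRCm38). Of their promoters 2 are shown because the levels of the C1q genes varied together, with r of 0.78 to 0.88 between pairs over the libraries. C1qb lies at chr4:136880129-136886187, C1qc at chr4:136889804-136893065 and C1qa at chr4:136895917-136898803, in the GENCODE vM21 annotation, with 3616 and 2851 bases between neighbours and no annotated gene in either gap. Cx3cr1 (chromosome 9) and P2ry12 (chromosome 3) are shown beside them because both had their lowest level of the 35 in 1 library where no chain of C1q did, described further on. The 250 bases before the RefSeq start are written in the direction of the gene, from chr4:136886201-136886450 for C1qb, chr4:136892915-136893164 for C1qc, chr9:120068297-120068546 for Cx3cr1 and chr3:59262986-59263235 for P2ry12, all from the minus strand. Capitals mark the PU box, GAGGAA or its reverse complement TTCCTC, the letters that the myeloid factor PU.1 (Spi1) is known to bind.
C1qb: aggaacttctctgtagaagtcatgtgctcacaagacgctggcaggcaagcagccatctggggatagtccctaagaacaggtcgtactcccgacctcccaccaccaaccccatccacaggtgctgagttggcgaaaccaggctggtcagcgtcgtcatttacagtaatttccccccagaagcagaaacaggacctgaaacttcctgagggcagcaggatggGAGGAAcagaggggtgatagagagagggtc
C1qc: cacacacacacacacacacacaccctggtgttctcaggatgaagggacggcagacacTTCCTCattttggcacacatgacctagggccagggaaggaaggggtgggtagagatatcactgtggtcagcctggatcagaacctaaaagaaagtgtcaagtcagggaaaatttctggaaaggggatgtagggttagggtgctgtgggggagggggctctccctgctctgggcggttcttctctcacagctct
Cx3cr1: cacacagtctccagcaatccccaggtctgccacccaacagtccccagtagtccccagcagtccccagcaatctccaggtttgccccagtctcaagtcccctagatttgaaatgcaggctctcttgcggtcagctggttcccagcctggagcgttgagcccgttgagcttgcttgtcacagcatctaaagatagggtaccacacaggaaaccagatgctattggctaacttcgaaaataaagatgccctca
P2ry12: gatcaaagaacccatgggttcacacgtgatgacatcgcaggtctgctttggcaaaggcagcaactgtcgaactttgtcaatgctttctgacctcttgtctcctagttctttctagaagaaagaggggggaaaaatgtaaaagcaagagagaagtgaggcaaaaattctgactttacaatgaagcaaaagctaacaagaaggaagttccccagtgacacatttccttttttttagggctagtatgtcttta
The motif began 30 bases before the start in C1qb, on the strand of the gene (position -30), and at position -193 in C1qc, on the other strand. Neither the Cx3cr1 window nor the P2ry12 window held it. The bases after the RefSeq start of P2ry12 were not found in a GENCODE vM21 transcript of that gene, unlike those of the other windows shown. The P2ry12 window may therefore not lie directly before an annotated start. The Cx3cr1 window lies within the annotated span of its gene (chr9:119901616-120069879), and the C1qc window partly within that of C1qc. Finding the bases in a transcript thus does not place a window before the outermost annotated start. Among 32851 RefSeq promoters of the same length, 23.3% held at least 1 match on either strand, so a match describes these letters and says nothing of binding. Promoter sequences were at hand for 5 of the 9 members, of which 3 held the motif (C1qb, C1qc and Trem2).

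The remaining members lay elsewhere. Tmem119 (chr5:113793729-113800516) and Selplg (chr5:113818536-113832644) were neighbours on chromosome 5, 18019 bases apart, Trem2 lay at chr17:48346401-48354147 and Csf1r on chromosome 18. P2ry12 lies within Med12l, which is transcribed from the other strand, the annotated span of Cx3cr1 overlaps 9 annotated genes and Csf1r overlaps Hmgxb3. The libraries marked strand, but the sources used here do not say whether counting used it. These overlaps are of whole gene spans, introns included. Whether the counts of these members hold reads of the overlapping genes is therefore not known. Member levels in this report are log2 CPM, the base-2 logarithm of reads per M, unless a length is named.

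The libraries held 12.8 to 28.0 M (mega) reads over the measured genes, with a median of 21.8 M, and RNA integrity numbers of 8.8 to 9.3. Shank3 lay between 4.07 and 5.11 log2 CPM in the 16 KO libraries, against 8.22 to 8.85 in 16 of the 19 WT libraries. The libraries labelled WT_abx 4, WT_acetate 2 and WT_acetate 5 stood apart at 7.48 to 8.08, and in them Acr, the gene next to Shank3, was at 3.62 to 4.56, against 5.04 to 5.78 in KO and -0.46 to 0.83 in the other WT libraries. Y-linked genes went against the labelled sex in WT_abx 3, WT_acetate 2 and WT_acetate 4. In WT_acetate 5, labelled female, they summed to 34.3% of the male median, between the 4.73 to 7.49% of the other female libraries and the 91.2 to 132.4% of the other male libraries. Comparisons that use any of these 5 libraries are given with and without them.

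Every member had at least 115 reads in every library, the lowest being Trem2. Set against the length of the principal transcript, the C1q chains led, with C1qa at 32.2 ± 4.5, C1qb at 25.2 ± 3.4 and C1qc at 24.0 ± 2.9 CPM per kilobase (mean ± SD over 35 libraries). Csf1r followed at 21.4 ± 2.5 and Selplg, which encodes the P-selectin ligand, at 15.9 ± 2.0. P2ry12, an ADP receptor that guides microglial processes, was at 11.1 ± 1.6, Trem2, a lipid-sensing receptor, at 10.7 ± 1.6, Tmem119, a membrane protein used as a marker, at 10.2 ± 1.4, and Cx3cr1, the receptor for the neuronal chemokine Cx3cl1, at 10.1 ± 1.5 CPM per kilobase. The last 4 members differed by less than their SD. The 38 other homeostatic microglia genes on the list all had a row too. Macrophages of the brain's borders share several members with microglia, and 11 of their 16 listed markers were measured, at a summed 62.5 to 150.8 CPM across libraries. Most of that sum came from Maf and Stab1, at means of 37.1 and 24.8 CPM. The defining marker Mrc1 had a mean of 2.38 log2 CPM, while Pf4 and Ms4a7 had no row. Of 18 listed blood leukocyte markers 6 had a row. In bulk tissue, fewer microglia and less RNA per microglial cell cannot be told apart.

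The chains of C1q, which form 1 molecule, come first. C1qa averaged 5.11 ± 0.18 in KO_abx, 4.98 ± 0.12 in KO_acetate, 5.09 ± 0.29 in KO_abx_and_acetate and 5.11 ± 0.14 in KO_control, against 5.06 ± 0.21 in WT_abx, 5.07 ± 0.27 in WT_acetate, 4.84 ± 0.23 in WT_abx_and_acetate and 5.13 ± 0.16 in WT_control (log2 CPM, mean ± SD, with the library numbers given above). C1qb averaged 4.74 ± 0.23 in KO_abx, 4.68 ± 0.15 in KO_acetate, 4.89 ± 0.16 in KO_abx_and_acetate and 4.91 ± 0.09 in KO_control, against 4.81 ± 0.19 in WT_abx, 4.77 ± 0.24 in WT_acetate, 4.49 ± 0.25 in WT_abx_and_acetate and 4.81 ± 0.10 in WT_control. The means of C1qc were 4.83 ± 0.14 in KO_abx, 4.79 ± 0.15 in KO_acetate, 4.89 ± 0.13 in KO_abx_and_acetate and 4.87 ± 0.15 in KO_control, against 4.88 ± 0.17 in WT_abx, 4.83 ± 0.29 in WT_acetate, 4.72 ± 0.22 in WT_abx_and_acetate and 4.92 ± 0.14 in WT_control. All 3 chains were lowest in WT_abx_and_acetate, and the span between the highest and the lowest group mean was 0.29 for C1qa, 0.42 for C1qb and 0.20 for C1qc. In the order of the group means no neighbouring groups were further apart than the larger of their SDs. KO_control, the highest group for C1qb, and WT_abx_and_acetate did not overlap. These groups were picked as the highest and the lowest from the same values, and no share over all genes was computed for such a pair. The lack of overlap is therefore a description only.

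The receptors through which microglia sense neurons, nucleotides and lipids come next. Cx3cr1 averaged 5.53 ± 0.18 in KO_abx, 5.37 ± 0.16 in KO_acetate, 5.59 ± 0.20 in KO_abx_and_acetate and 5.31 ± 0.55 in KO_control, against 5.52 ± 0.20 in WT_abx, 5.57 ± 0.10 in WT_acetate, 5.36 ± 0.27 in WT_abx_and_acetate and 5.58 ± 0.09 in WT_control. P2ry12 averaged 4.66 ± 0.11 in KO_abx, 4.67 ± 0.14 in KO_acetate, 4.82 ± 0.21 in KO_abx_and_acetate and 4.44 ± 0.51 in KO_control, against 4.83 ± 0.25 in WT_abx, 4.74 ± 0.18 in WT_acetate, 4.72 ± 0.15 in WT_abx_and_acetate and 4.64 ± 0.09 in WT_control. The wide SD in KO_control came with 1 library, described further on. Trem2 averaged 3.72 ± 0.17 in KO_abx, 3.36 ± 0.20 in KO_acetate, 3.61 ± 0.21 in KO_abx_and_acetate and 3.49 ± 0.11 in KO_control, against 3.54 ± 0.29 in WT_abx, 3.65 ± 0.18 in WT_acetate, 3.47 ± 0.29 in WT_abx_and_acetate and 3.44 ± 0.20 in WT_control. Group means of these receptors spanned 0.28 for Cx3cr1, 0.39 for P2ry12 and 0.36 for Trem2, and the highest and the lowest group overlapped for each.

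Csf1r, the receptor on which microglial survival depends, averaged 6.68 ± 0.07 in KO_abx, 6.50 ± 0.22 in KO_acetate, 6.68 ± 0.17 in KO_abx_and_acetate and 6.66 ± 0.13 in KO_control, against 6.71 ± 0.23 in WT_abx, 6.67 ± 0.14 in WT_acetate, 6.52 ± 0.23 in WT_abx_and_acetate and 6.74 ± 0.10 in WT_control. Selplg averaged 4.80 ± 0.09 in KO_abx, 4.78 ± 0.15 in KO_acetate, 4.90 ± 0.21 in KO_abx_and_acetate and 4.94 ± 0.06 in KO_control, against 4.89 ± 0.23 in WT_abx, 4.91 ± 0.17 in WT_acetate, 4.65 ± 0.24 in WT_abx_and_acetate and 5.0 ± 0.16 in WT_control. WT_control was the highest group for both genes. Tmem119 averaged 4.48 ± 0.10 in KO_abx, 4.45 ± 0.07 in KO_acetate, 4.58 ± 0.21 in KO_abx_and_acetate and 4.52 ± 0.18 in KO_control, against 4.47 ± 0.28 in WT_abx, 4.45 ± 0.21 in WT_acetate, 4.28 ± 0.11 in WT_abx_and_acetate and 4.72 ± 0.15 in WT_control. Its group means spanned 0.44, the widest of the 9 members, and 1 of its 7 steps between neighbouring groups exceeded the larger SD.

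**Figure D1:**
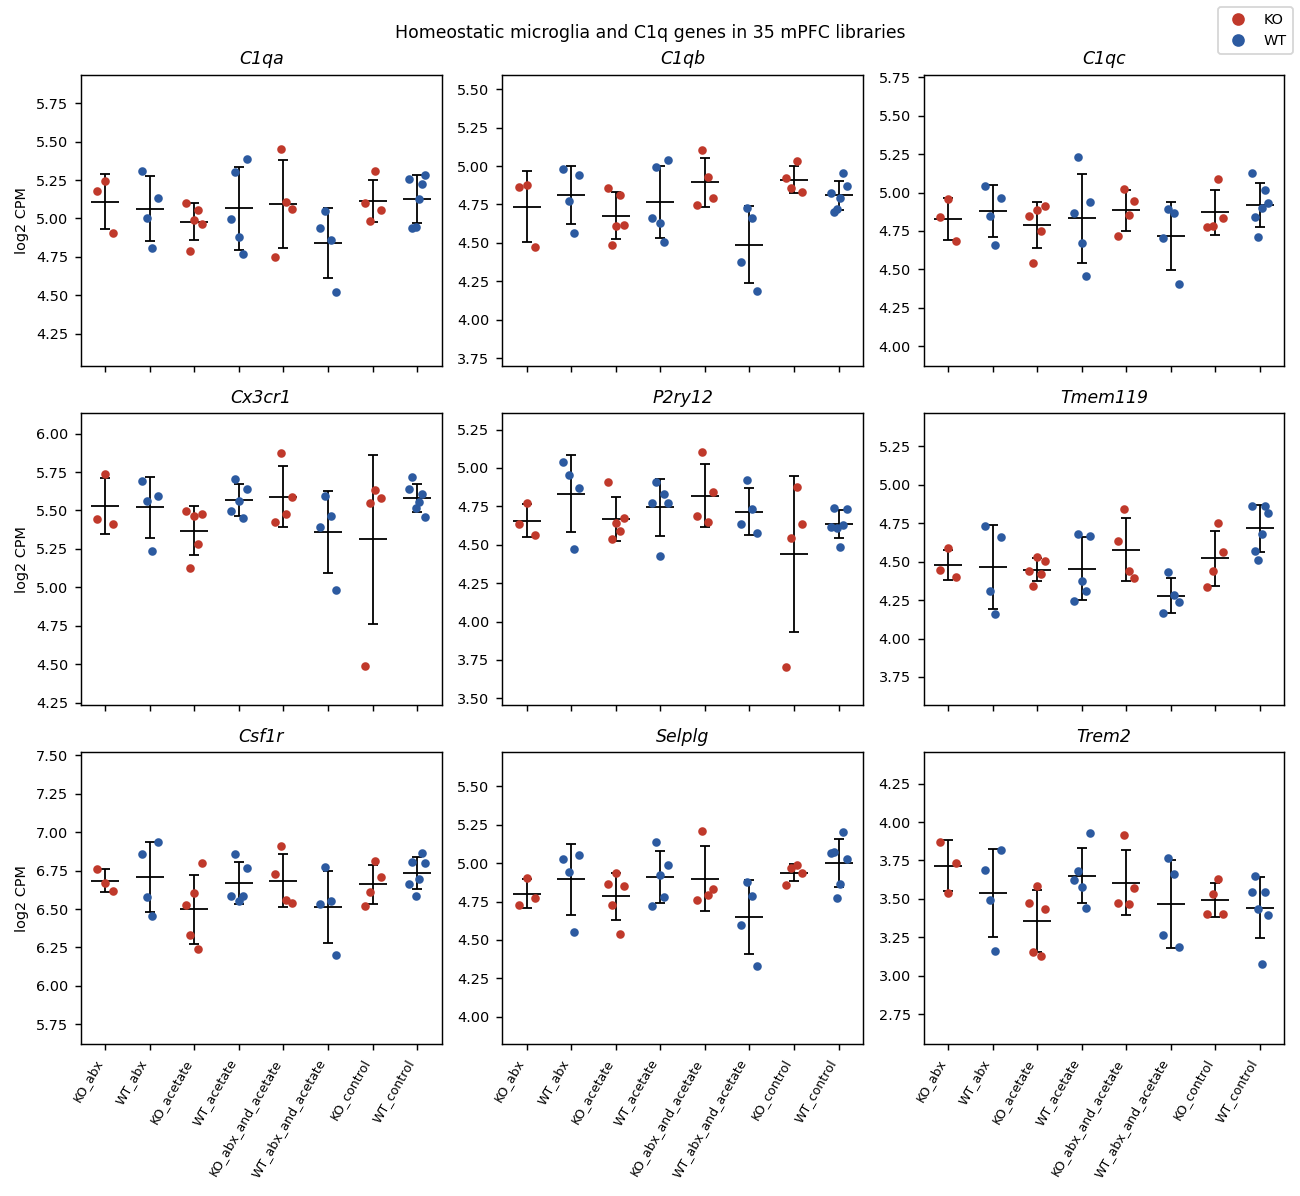
Each panel plots 1 gene in log2 CPM (vertical axis, a span of 1.9 in every panel) by group, with a point per library, a bar at the group mean and whiskers of 1 SD; red is KO and blue is WT. The groups overlap in most panels, Tmem119 is highest in WT_control, and 1 KO_control library lies at 4.49 for Cx3cr1 and 3.71 for P2ry12.

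Genotype was compared first, with limma's moderated test across all genes. Over the treatments no member passed the test between KO and WT: 0 of 9 passed an adjusted p of 0.05, where 0.0202% of all genes did, and 0 of 9 had an unadjusted p under 0.05 by limma or with voom weights, where 5.25% of all genes did without weights. The log2 folds of the members lay between -0.09 for P2ry12 and 0.08 for C1qb, with a median of 0.005, and no 95% interval of a member reached beyond -0.25 or 0.21, which are 0.843 and 1.16 on the linear scale. Without the 3 libraries of intermediate Shank3, C1qb came to 0.15 ± 0.06 (log2 fold ± SE, adjusted p = 0.678, unadjusted p = 0.0191). It was the 1 member with an unadjusted p under 0.05 in that fit. Of 14870 genes, 512 had one there with a positive fold and 542 with a negative fold. Without the 5 libraries in doubt the median was 0.004, and 0 of 9 had an unadjusted p under 0.05, where 8.01% of all genes did. Of the 38 other homeostatic microglia genes 19 lay above 0 and 19 below, with a median of -0.0005, and none passed the threshold.

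Within the water control, 7 of the 9 members lay below 0 in KO against WT, as did 50.7% of all genes, and the median was -0.06. None passed the threshold, which 0.0202% of all genes did, and 0 of 9 had an unadjusted p under 0.05 by limma or with voom weights, where 4% of all genes did by limma. The lowest log2 fold was that of Cx3cr1, at -0.27 ± 0.15, and without the library KO_control 1 it was 0.02 ± 0.11. P2ry12 likewise came to -0.19 with that library and 0.06 ± 0.12 without it. Under antibiotics, KO against WT gave a median of -0.02 and a range of -0.17 for P2ry12 to 0.17 for Trem2, with 0 of 9 members and 0.0134% of all genes past the threshold and 0 of 9 members under an unadjusted p of 0.05 by limma or with voom weights, where 3.78% of all genes were by limma. With the 5 libraries in doubt left out the median there was -0.10, and 0 of 9 members had an unadjusted p under 0.05, where 3.68% of all genes did.

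Under acetate all 9 members lay below 0 in KO against WT, as did 50.9% of all genes, and none passed the threshold, which 0.00672% of all genes did. Trem2 had 3.47, 3.16, 3.59, 3.13 and 3.44 log2 CPM in the KO_acetate libraries, against 3.62, 3.68, 3.58, 3.44 and 3.93 in the WT_acetate libraries. The groups overlapped. The log2 fold of Trem2 was -0.29 ± 0.13 (adjusted p = 0.827), the 1 member with an unadjusted p under 0.05, by limma and with voom weights, where 5.97% of all genes had one. The libraries labelled WT_acetate 2 and WT_acetate 5, in which Shank3 was intermediate, were the 2 highest of their group in Trem2. Without the 3 libraries of intermediate Shank3 the fold of Trem2 was -0.14 ± 0.14, the fold of C1qb was 0.10 ± 0.12 against -0.09 with them, and 4 members lay below 0. Without the 5 libraries in doubt the fold of Trem2 was -0.21 ± 0.16, and 0 of 9 members had an unadjusted p under 0.05, where 6.36% of all genes did.

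Under antibiotics with acetate the genotypes were furthest apart. C1qb had 4.75, 5.10, 4.93 and 4.79 log2 CPM in the KO_abx_and_acetate libraries, against 4.38, 4.73, 4.66 and 4.19 in the WT_abx_and_acetate libraries. Every KO library lay above every WT library, which was so for 1.58% of all genes. The log2 fold of C1qb was 0.40 ± 0.13 (adjusted p = 0.983), so the difference did not pass the test over all genes. All 9 members lay above 0, as did 50.8% of all genes, with a median of 0.23, and 3 of 9 had an unadjusted p under 0.05 by limma (C1qb, Tmem119 at 0.27 and Selplg at 0.27), against 1.94% of all genes in that direction. Of the members 0 of 9 passed the threshold, of all genes 0.0134%. With voom weights 1 of 9 had an unadjusted p under 0.05, where 240 of 14870 genes had one with a positive fold. A single library carried much of the median: without WT_abx_and_acetate 4 it was 0.06, and C1qb came to 0.27. Without KO_abx_and_acetate 2, the library with the highest values of 5 members, the median was 0.12. Of the other homeostatic genes 34 of 38 lay above 0, with a median of 0.15 and none past the threshold, and all 16 oligodendrocyte markers lay above 0 as well, whose part in the result was not tested.

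**Figure D2:**
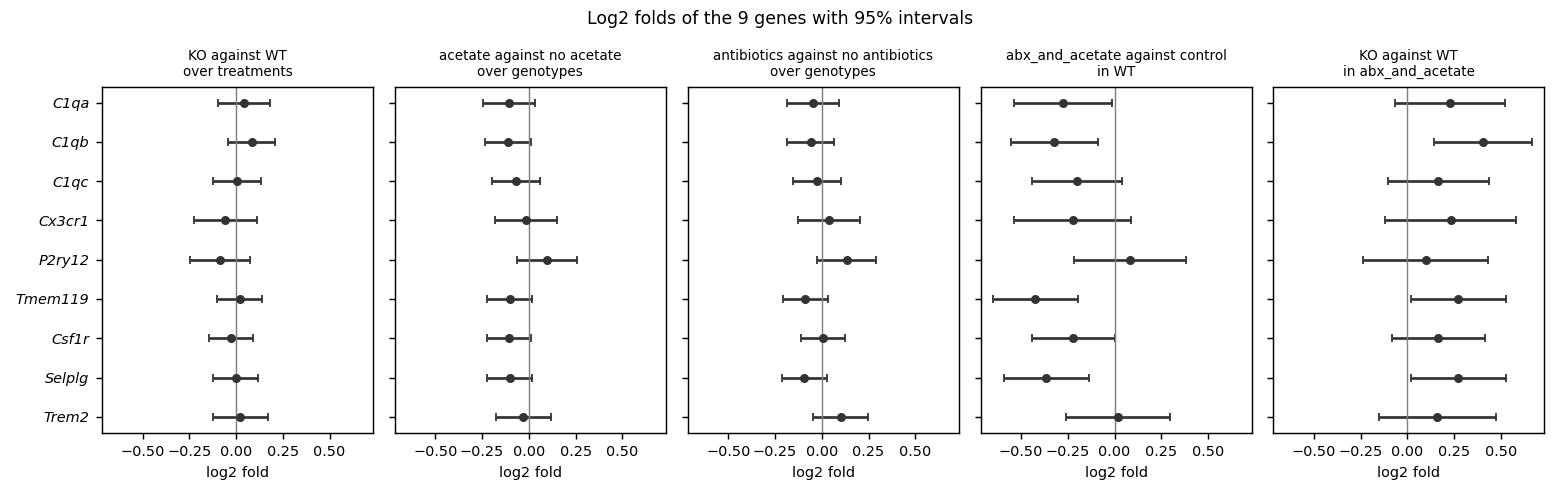
Log2 folds of the 9 genes (horizontal axis) with 95% intervals from limma, in 5 comparisons; positive values mean higher in KO, in the acetate or antibiotic groups or in abx_and_acetate. The averaged comparisons stay near 0, most members lie left of 0 in abx_and_acetate against control in WT, and all lie right of 0 in KO against WT in abx_and_acetate.

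The treatment comparison closest to a call was antibiotics with acetate against water in WT mice, and the member was Tmem119. It had 4.16, 4.43, 4.29 and 4.24 log2 CPM in the WT_abx_and_acetate libraries, against 4.51 at the lowest, 4.75 at the median and 4.86 at the highest of 6 WT_control libraries. All treated libraries lay below all control libraries, which was so for 2.24% of all genes. The log2 fold was -0.42 ± 0.11 by limma, a level 0.745 times that of control, with an adjusted p of 0.0577 that missed the threshold. The adjusted p ran from 0.038 to 0.192 over the alternatives: it was 0.0415 with no sex term and 0.038 without WT_control 3, and it was highest without WT_abx_and_acetate 1. Selplg, the neighbour of Tmem119 on chromosome 5, had 4.60, 4.88, 4.79 and 4.33 log2 CPM in the WT_abx_and_acetate libraries, against 4.78, 5.05 and 5.20 at the lowest, the median and the highest of WT_control. These groups overlapped, and the log2 fold of Selplg was -0.37 ± 0.11 (adjusted p = 0.102).

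In the same comparison C1qb came to -0.32 ± 0.12 (adjusted p = 0.175) and C1qa to -0.27 ± 0.13 (adjusted p = 0.326), while C1qc (-0.20), Csf1r (-0.22) and Cx3cr1 (-0.22) had unadjusted p values above 0.05. P2ry12 at 0.08 and Trem2 at 0.02 did not share that direction. In all, 7 of 9 members lay below 0, against 49.9% of all genes, the median was -0.22, and 4 of 9 had an unadjusted p under 0.05 with a negative fold, against 7.32% of all genes. With voom weights 3 of 9 had one, as did 1031 of 14870 genes. None of the 9 passed the threshold, which 0.726% of all genes did. Without WT_abx_and_acetate 4, the shallowest library of the 35, the folds were -0.13 for C1qa, -0.20 for C1qb and -0.25 for Selplg, and Tmem119 remained at -0.39. Among markers of other cell types, all 11 border macrophage markers lay below 0, with none past the threshold and a median of -0.29. Their summed levels, led on average by Maf and Stab1, were 67.2 to 79.3 CPM in WT_abx_and_acetate against 72.1 to 118.2 CPM in WT_control. All 16 oligodendrocyte markers lay below 0, neuron markers had a median of 0.05, and the part of any of these in the members' folds was not tested.

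The KO mice gave another picture for the same treatment, although the difference between genotypes did not pass its own test. In KO, abx_and_acetate against control gave a median of 0.02, with 0 of 9 members and 0 of 14870 genes past the threshold. P2ry12 was the member furthest from 0, at 4.69, 5.10, 4.65 and 4.84 log2 CPM in KO_abx_and_acetate libraries, against 3.71, 4.54, 4.88 and 4.64 in KO_control libraries. The groups overlapped, and its log2 fold was 0.38 ± 0.16 (adjusted p = 0.603), but 0.14 ± 0.13 without KO_control 1. It was the only member with an unadjusted p under 0.05 there, by limma and with voom weights, where 7.42% of all genes had one. For the difference between KO and WT in this response, all 9 members lay above 0, as did 51.1% of all genes, with a median of 0.29. Tmem119 came to 0.47 ± 0.17 and Cx3cr1 to 0.50 ± 0.23 (adjusted p = 0.999 for both by limma), the 2 members with an unadjusted p under 0.05 by limma and with voom weights, against 4.53% of all genes. Without KO_control 1 the difference in Cx3cr1 was 0.25 ± 0.16. No gene and no member passed the threshold in any of the 3 differences between genotypes, and for antibiotics alone and acetate alone 0 of 9 members had an unadjusted p under 0.05, by limma or with voom weights, where 2.47% and 3.65% of all genes did by limma. These counts were again 0 of 9 without the 5 libraries in doubt, where 1.87% and 4.65% of all genes did, with medians of -0.05 and 0.04. Without only the 3 libraries of intermediate Shank3, 0 of 9 members had one by limma for antibiotics alone and 1 of 9 for acetate alone. For acetate alone the lowest adjusted p there was 0.987 and the median 0.11. Of 14870 genes, 364 had an unadjusted p under 0.05 in that fit with a positive difference and 332 with a negative one.

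Antibiotics on their own gave no member past the threshold in either genotype. In KO, abx against control gave a median of 0.005 and a range of -0.18 for C1qb to 0.22 for Cx3cr1, P2ry12 and Trem2, with 0 of 9 members and 0.0134% of all genes past the threshold and 0 of 9 members under an unadjusted p of 0.05 by limma or with voom weights, where 3.3% of all genes were by limma. Without KO_control 1, Cx3cr1 came to -0.08 and P2ry12 to -0.05. In WT the median was -0.04, 0 of 9 members and 0 of 14870 genes passed, and 1 of 9 members had an unadjusted p under 0.05, where 9.05% of all genes had one. That member was Tmem119, with 4.73, 4.31, 4.16 and 4.66 log2 CPM in WT_abx libraries. WT_abx 2 and WT_abx 3 lay below every WT_control library, and the groups overlapped. Its log2 fold was -0.25 ± 0.11 (adjusted p = 0.49), and it was -0.17 ± 0.13 without the 5 libraries in doubt. In that fit, which left 2 WT_abx libraries, the member with an unadjusted p under 0.05 was P2ry12 instead, at 0.40 ± 0.19 (adjusted p above 0.99), where 3.01% of all genes had one. Averaged over genotypes and acetate, antibiotics gave a median of -0.03 and folds of -0.09 to 0.13, where the highest was P2ry12. None of the 9 passed and none had an unadjusted p under 0.05 by limma or with voom weights, against 7.32% of all genes by limma, and no 95% interval reached beyond -0.22 or 0.29. Without the 5 libraries in doubt P2ry12 came to 0.21 ± 0.09 (adjusted p = 0.856) and was the 1 member with an unadjusted p under 0.05, where 5.76% of all genes had one, and the median was 0.01.

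Acetate on its own gave a similar account for Tmem119 in WT mice. It had 4.24, 4.68, 4.37, 4.31 and 4.66 log2 CPM in the WT_acetate libraries. WT_acetate 1, WT_acetate 3 and WT_acetate 4 lay below every WT_control library, and the libraries labelled WT_acetate 2 and WT_acetate 5, in which Shank3 was intermediate, were the 2 within the WT_control range. The log2 fold was -0.25 ± 0.10 (adjusted p = 0.464) and was -0.40 ± 0.12 without the 3 libraries of intermediate Shank3 (adjusted p = 0.226) and -0.38 ± 0.13 without the 5 libraries in doubt (adjusted p = 0.359), again the 1 member with an unadjusted p under 0.05, where 9.52% of all genes had one. With all libraries it was the 1 member with an unadjusted p under 0.05, by limma and with voom weights, where 9.41% of all genes had one, and 0 of 9 members and 0.00672% of all genes passed the threshold. In KO mice Tmem119 came to -0.07, and C1qb was the lowest member, at 4.86, 4.49, 4.61, 4.81 and 4.62 log2 CPM in KO_acetate, against 4.92, 4.86, 5.03 and 4.83 in KO_control. The highest KO_acetate library lay above the lowest KO_control library. Its log2 fold was -0.23 ± 0.12 (adjusted p = 0.395), and 0 of 14870 genes passed. By limma 0 of 9 members and 13% of all genes had an unadjusted p under 0.05. With voom weights 1 of 9 members had one, as did 988 of 14870 genes with a positive fold and 987 with a negative fold. Without KO_control 1, Cx3cr1 came to -0.24 ± 0.12 against 0.06 with it, P2ry12 to -0.03 against 0.23 with it, and all 9 members lay below 0.

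With acetate added to antibiotics in WT mice, all 9 members lay below 0, as did 50.7% of all genes, with a median of -0.17, and 0 of 9 members and 0 of 14870 genes passed. C1qb came to -0.32 ± 0.13 (adjusted p = 0.764) and Selplg to -0.26 ± 0.12 (adjusted p = 0.805), the 2 members with an unadjusted p under 0.05 by limma, against 6.12% of all genes. With voom weights 1 member had one, as did 351 of 14870 genes with a negative fold. Without WT_abx_and_acetate 4 the median was -0.06. Without the 5 libraries in doubt it was -0.27, and 3 members had an unadjusted p under 0.05, where 3.54% of all genes did: C1qb at -0.38 ± 0.14, C1qa at -0.33 ± 0.16 and Selplg at -0.33 ± 0.14 (adjusted p above 0.99 for each by limma). In KO mice the same step gave a median of 0.06, folds of -0.09 to 0.16 and 0 of 9 members under an unadjusted p of 0.05 by limma or with voom weights, where 2% of all genes had one by limma.

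Averaged over genotypes and antibiotics, acetate gave folds below 0 for 8 of 9 members, against 50.2% of all genes, with a median of -0.10. C1qa and C1qb stood at -0.11, Csf1r at -0.11, Tmem119 and Selplg at -0.10, C1qc at -0.07, Trem2 at -0.03 and Cx3cr1 at -0.01, and P2ry12 alone lay above 0, at 0.10. None of the 9 passed the threshold, which 0.0672% of all genes did, and 0 of 9 had an unadjusted p under 0.05 by limma or with voom weights, where 18.1% of all genes did by limma. Without the 5 libraries in doubt the median was -0.13 and 5 members, C1qa, C1qb, Tmem119, Csf1r and Selplg, had an unadjusted p under 0.05, with adjusted p values no lower than 0.223, where 15.1% of all genes had one. Border macrophage markers lay below 0 for 11 of 11 genes in this comparison, with a median of -0.37 and 6 under an unadjusted p of 0.05. The activated and disease-associated microglia genes had 23 of 31 below 0 and 9 under an unadjusted p of 0.05 with a negative fold, among them Cybb at -0.59 ± 0.19 (adjusted p = 0.131). Complement genes outside C1q had 32 of 38 below 0 and 11 under an unadjusted p of 0.05 with a negative fold, with C1s1, a protease of the C1 complex, at -0.60 ± 0.14 (adjusted p = 0.0741). No gene of these lists passed the threshold, and the part of border macrophages in the members' folds was not tested.

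The ligands and partners of the members were measured for 14 of 16 listed genes. Cx3cl1, the ligand of Cx3cr1, averaged 9.40 ± 0.17 log2 CPM in KO_abx, 9.39 ± 0.24 in KO_acetate, 9.42 ± 0.14 in KO_abx_and_acetate and 9.59 ± 0.25 in KO_control, against 9.45 ± 0.22 in WT_abx, 9.59 ± 0.15 in WT_acetate, 9.48 ± 0.21 in WT_abx_and_acetate and 9.68 ± 0.30 in WT_control. Of the ligands of Csf1r, Il34 had group means of 5.68 to 5.85 and Csf1 of 4.09 to 4.40, and Tyrobp, the signalling adaptor of Trem2, had group means of 2.30 to 2.54. None of the 14 passed the threshold in any of the 18 comparisons. The following were picked from all these tests for an unadjusted p under 0.05 by limma. Csf1 came to 0.31 ± 0.14 in abx against control in KO (adjusted p = 0.999), where 3.3% of all genes had one. Syk, a kinase downstream of Trem2, came to -0.39 ± 0.17 in abx against control in WT (adjusted p = 0.511), where 9.05% had one. The transcription factor Runx1 came to 0.78 ± 0.35 in KO against WT under antibiotics with acetate (adjusted p = 0.999), where 1.94% had one with a positive fold. Runx1 lay near the floor, with group means of -0.48 to 0.19 log2 CPM. Its lowest value of the 35 was in WT_abx_and_acetate 4, the shallowest library.

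From library to library the members varied together. Over the 35 libraries all 36 pairs correlated above 0, with a median Pearson r of 0.62 and 25 pairs above 0.5, and the median within groups was 0.61. The libraries share their depth and dissection in every such pair, so these values are a description. C1qa and C1qb were the closest pair (r = 0.88, Spearman rho = 0.90, r = 0.82 without the 2 libraries farthest from the median of C1qa), followed by C1qa and C1qc (r = 0.85, rho = 0.84). Next came Csf1r with Selplg (r = 0.81, rho = 0.74), Cx3cr1 with P2ry12 (r = 0.79, rho = 0.59) and the neighbours Tmem119 and Selplg (r = 0.78, rho = 0.77). The lowest r was that of P2ry12 with C1qb (r = 0.24, rho = 0.43), which was 0.44 without KO_control 1 and KO_abx_and_acetate 2, and the lowest rho that of P2ry12 with Tmem119 (r = 0.32, rho = 0.30). The closeness of Cx3cr1 and P2ry12 rested partly on 2 libraries: without KO_control 1 and WT_abx_and_acetate 4 their r was 0.59.

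**Figure D3:**
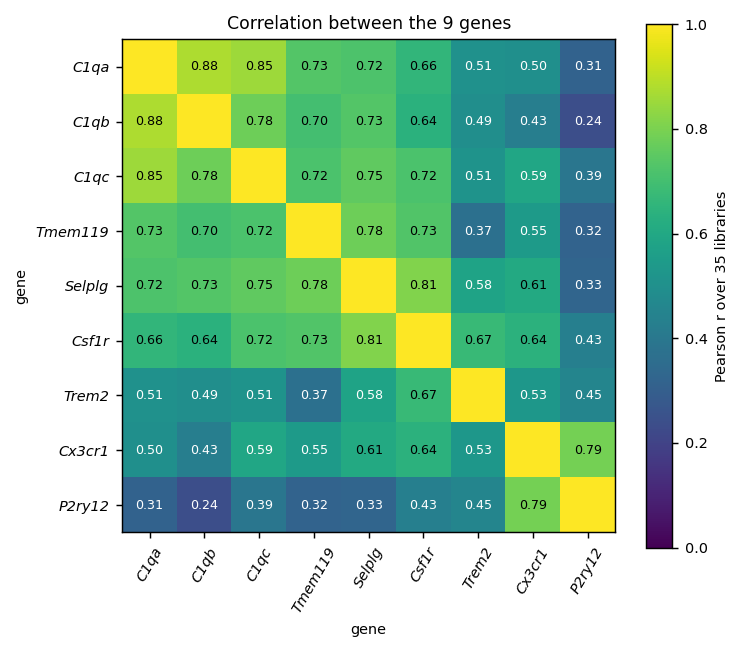
Pearson r over 35 libraries for each pair of the 9 genes (both axes), with the value in each cell and colour from 0 to 1. The C1q chains form a block of 0.78 to 0.88, Tmem119, Selplg and Csf1r join it at 0.64 to 0.81, and P2ry12 is tied most closely to Cx3cr1, at 0.79.

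The genes most like the mean pattern of the 9 members were largely microglial. Of the 10 other genes with the highest r over 35 libraries, 6 stood on the list of other homeostatic genes: Fcrls (0.88), Olfml3 (0.85), Itgam (0.80), Cyth4 (0.80), Laptm5 (0.80) and Ctss (0.79). The other 4 were the mitochondrially encoded mt-Atp8 (0.86) and mt-Nd4l (0.80), the endosomal protein gene Unc93b1 (0.82) and the brain endothelial transporter gene Slco1c1 (0.80). The mean pattern followed that of the 38 other homeostatic genes at r = 0.95 (rho = 0.95), that of 16 endothelial markers at r = 0.69 (rho = 0.68), that of border macrophage markers at r = 0.18 (rho = 0.29) and that of neuron markers at r = -0.09 (rho = -0.15). With library depth it had r = 0.35 (rho = 0.25). Member by member, C1qc was most like Fcrls (0.86), Csf1r most like the integrin gene Itgam (0.86), Tmem119 most like Traf3 (0.84), Cx3cr1 most like P2ry13 (0.83) and P2ry12 most like Gpr34 (0.89).

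Cx3cr1, P2ry12, P2ry13 and Gpr34 are receptors of the G protein-coupled family on homeostatic microglia, and 1 library, KO_control 1, held all 4 at their lowest of the 35. P2ry13 and Gpr34 were named for their likeness to Cx3cr1 and P2ry12 over the same libraries, so their low values there are no separate support. Cx3cr1 and P2ry13 had r = 0.77 without KO_control 1 and WT_abx_and_acetate 4. P2ry12 and Gpr34 had r = 0.74 without KO_control 1 and KO_abx_and_acetate 2. In KO_control 1, Cx3cr1 was at 4.49 log2 CPM (505 reads), against 5.55, 5.63 and 5.58 in the other KO_control libraries, and P2ry12 was at 3.71 (293 reads), against 4.54, 4.88 and 4.64. Gpr34 was at 1.89 (83 reads), against 2.94 to 3.43, and P2ry13 at 2.49 (126 reads), against 3.42 to 3.68. The level of Cx3cr1 there was 2.14 times lower than the mean of the other KO_control libraries, that of P2ry12 1.97 times, that of Gpr34 2.38 times and that of P2ry13 2.05 times. The C1q chains did not share this: C1qa was at 5.10, against 4.99 to 5.31, C1qb at 4.92, against 4.83 to 5.03, and C1qc at 4.77, against 4.79 to 5.09. Med12l, which overlaps P2ry12 on the other strand, was at 5.46, against 5.21 to 5.42. Of the other homeostatic genes 5 of 38 had their lowest value of the 35 in this library, as did 7 of 16 endothelial markers and 8.53% of all genes. The library held 21.5 M reads with an RNA integrity number of 8.9, both within the range of the others. Its marker lists differed from their averages over libraries: by 0.87 on the log2 scale for meningeal and choroid plexus markers, 0.66 for border macrophage markers, 0.64 for blood leukocyte markers, 0.60 for oligodendrocyte markers, 0.40 for activated and disease-associated microglia genes, -0.19 for neuron markers and -0.33 for endothelial markers. Other libraries lay further from the average in each of these lists. In WT_abx the scores reached 2.81 for meningeal and choroid plexus, 1.09 for border macrophage, 0.66 for blood leukocyte and 0.81 for activated microglia genes. In KO_acetate oligodendrocyte markers reached 1.80, and neuron and endothelial markers fell to -0.21 and -0.40. In KO_control 1 complement genes outside C1q and astrocyte, pericyte, red blood cell, cortical layer and striatal markers lay between -0.09 and 0.26. The part of these lists in the result was not tested.

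Another library was low in C1q and its companions instead. WT_abx_and_acetate 4 held the lowest value of the 35 in 5 members, C1qa at 4.52, C1qb at 4.19, C1qc at 4.41, Csf1r at 6.20 and Selplg at 4.33, and in 12 of 38 other homeostatic genes, against 6.75% of all genes. It was the shallowest library, with 12.8 M reads, and the 1 library of its group labelled female. At the other end, KO_abx_and_acetate 2 held the highest value in 5 members, C1qa at 5.45, C1qb at 5.10, Cx3cr1 at 5.87, P2ry12 at 5.10 and Selplg at 5.21, and in 11 of 38 other homeostatic genes, against 1.81% of all genes. Both libraries belong to the groups given antibiotics with acetate, in WT and in KO.

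**Figure D4:**
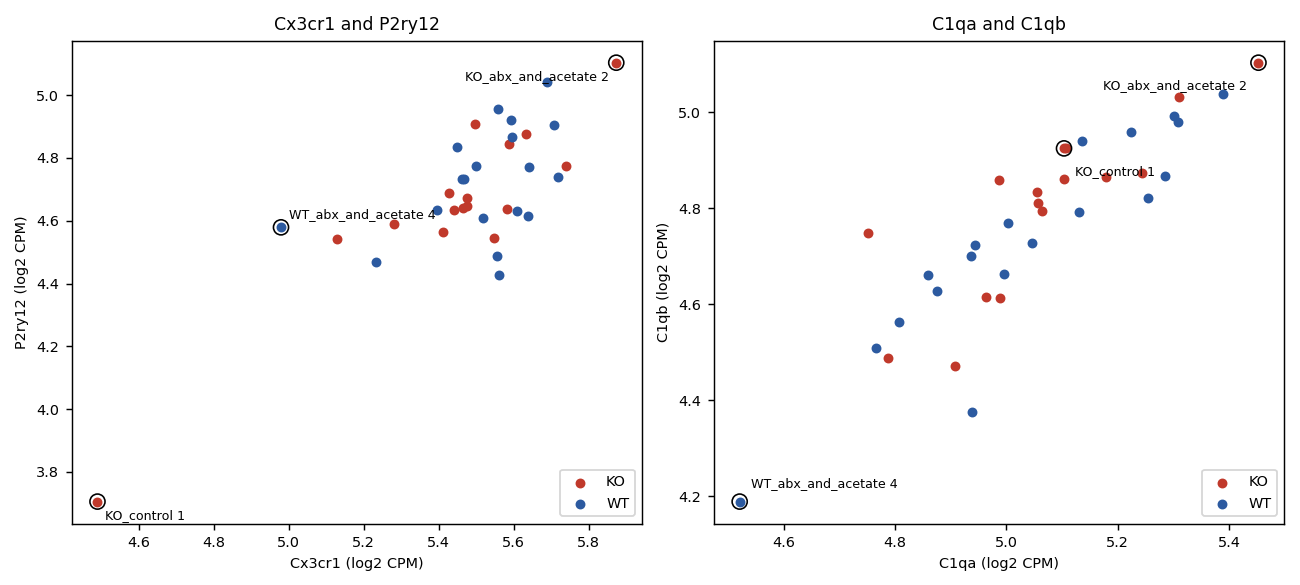
Left, P2ry12 against Cx3cr1, and right, C1qb against C1qa, in log2 CPM with a point per library; red is KO, blue is WT, and rings mark the 3 libraries named in the plot. KO_control 1 lies apart at 4.49 and 3.71 on the left and among the others at 5.10 and 4.92 on the right, while WT_abx_and_acetate 4 is lowest on the right, at 4.52 and 4.19.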

How the data were processed

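Strand-marking libraries of mPFC RNA were read as paired ends, per the labels' protocols. The authors deposited log2 CPM for 14870 genes in 35 columns, which were matched to samples through their titles, and 0 columns were left unused. The values follow voom: with 0.5 added to the reads of a gene, 100% of them turned back into whole reads (tolerance 0.01), which gave each library's depth. The submitters' processing notes name limma but no version, and the sources used here do not give the aligner, counting tool, build, annotation or low-count filter.

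A single limma fit (version 3.58.1, R 4.3.3) took the deposited log2 values unfiltered and without further pseudocount, with 8 group means, the labelled sex and a prior variance that follows the mean, over all 35 libraries. Tests were 2-sided, with Benjamini-Hochberg adjustment over the genes of each comparison and 0.05 as threshold. The 18 comparisons share groups, in particular their controls. A replicate number follows the sample records and pairs no libraries. GENCODE vM21 (GRCm38), which held 97.0% of the deposited symbols, gave positions and transcript lengths, and RefSeq (GRCm38.p6) gave promoters. The fit was tested on simulated data.

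The members and lists were chosen with earlier results of these data known. All members are named throughout, and ligands and partners where they are described. Results of a few other genes are not reported here. Of other lists up to 3 genes with the smallest p may be named, and likeness takes the 10 genes of highest r with the mean pattern and the most alike gene of each member. Med12l and the 3 libraries described singly were picked after their values were seen. Alternatives were another scaling, quantile normalization, a pseudocount of 2 reads, only genes with a mean of at least 0, voom weights, no sex term, RNA integrity as a covariate, no variance trend, only the groups compared, and leaving out libraries. Where a member count with voom weights stands beside a percentage of all genes, the percentage is from the fit without weights.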

Additional observations from a re-analysis of the deposited data

Results flagged for a closer look

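Among 63 sets of 4 to 6 libraries, each a member in a group, 3 held 1 library far from the others of its group by Dixon's test, where chance gives about 1 in 20. Cx3cr1 in KO_control 1 was at 4.49 log2 CPM, against 5.55 to 5.63 in the other 3 libraries. P2ry12 in WT_acetate 3 was at 4.43, against 4.77 to 4.91 in the other 4. Selplg in KO_abx_and_acetate 2 was at 5.21, against 4.76 to 4.83 in the other 3. No explanation of these values was tested.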

How the results depend on the processing

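The number of members past the threshold was 0 in each of the 18 comparisons and stayed 0 in 452 of 454 alternative fits of a comparison. In abx_and_acetate against control in WT it was 1 (Tmem119) with no sex term, and 0 to 1 over the fits that left out 1 library each. The cause was not tested. The median log2 fold of the members moved by less than its within-group SD of 0.16 in 451 of the 454, with a change of sign in 53. Most of the medians were themselves smaller than 0.16, so this count says little of their stability. For abx_and_acetate against control in WT, -0.09 without WT_abx_and_acetate 4 counted as unmoved (-0.22 with it). For abx_and_acetate against abx in WT, so did -0.06 without that library (-0.17 with it). Without the 3 libraries of intermediate Shank3 it was -0.24 in acetate against control in WT (-0.05 with them) and 0.11 for the difference between KO and WT in the response to acetate (-0.05 with them). In KO against WT in abx_and_acetate it ran from 0.064 to 0.29 over the fits that left out 1 library each (0.23 with all libraries). Of 4086 single folds 4068 kept their call within the within-group SD of their gene, 0.17 to 0.24, which is also wide beside many of these folds. Leaving out all 5 libraries in doubt together was chosen after the data were seen. No paired analysis was possible because the labels give the libraries no shared replicate numbers. Depth was lowest in WT_abx_and_acetate 4, at 12.8 M reads.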

Other observations

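The level of P2ry12 relative to Tmem119 within a library was singled out after its values were seen and is given with no test. P2ry12 minus Tmem119, in log2 CPM, was 0.17 to 0.19 in KO_abx, 0.11 to 0.47 in KO_acetate, 0.05 to 0.45 in KO_abx_and_acetate and -0.63 to 0.13 in KO_control. In WT it was 0.21 to 0.64 in WT_abx, 0.06 to 0.53 in WT_acetate, 0.34 to 0.49 in WT_abx_and_acetate and -0.25 to 0.17 in WT_control. In both genotypes each treated group had a median above that of its control group: 0.18 in KO_abx, 0.17 in KO_acetate and 0.24 in KO_abx_and_acetate, against 0.09 in KO_control, and 0.31 in WT_abx, 0.22 in WT_acetate and 0.46 in WT_abx_and_acetate, against -0.14 in WT_control. C1qa minus C1qb had a mean of 0.29 and an SD of 0.10 over the 35 libraries. P2ry12 minus Tmem119 had a mean of 0.18 and an SD of 0.26, with KO_control 1 at -0.63 among its values. Of the 36 pairs, C1qa with C1qb had the highest r and P2ry12 with Tmem119 the lowest rho. The smaller SD of C1qa minus C1qb is therefore no separate result.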
